A study of Sus scrofa with 43 samples.

Results

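Toll-like receptors are membrane receptors of the innate immune system that bind conserved molecules of microbes. TLR2, together with TLR1 or TLR6, binds bacterial lipopeptides, TLR4 binds lipopolysaccharide and TLR5 binds flagellin. TLR3, TLR7, TLR8 and TLR9 sit in endosomes and bind nucleic acids, and TLR10 is a close relative of TLR1 and TLR6. In the small intestine these receptors are made by epithelial cells as well as by immune cells of the mucosa.

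The genes described here are TLR1 to TLR10 of the pig. A spot was assigned to a receptor when its RefSeq transcript, without the version number, belonged to that gene, and 9 of the 10 genes had such a spot. These were 13 spots, 2 for TLR3, 4 for TLR4 and 1 for each of TLR1, TLR2, TLR6, TLR7, TLR8, TLR9 and TLR10, among 35884 transcripts on the array. No spot was named for TLR5, which was not analysed here. In the RefSeq annotation of Sscrofa11.1, TLR10, TLR1 and TLR6 are direct neighbors, and TLR7 and TLR8 overlap, as do TLR9 and TWF2. Whether probes for TLR1, TLR6 and TLR10 also bind each other's transcripts was not tested.

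Jejunal scrapings of 43 male piglets born to Hypor gilts and sows were each hybridized to 1 one-color Agilent array, which reads the RNA of 1 sample per array as spot intensities. The 23 control piglets came from mothers on standard feed, and the 20 amoxicillin piglets from mothers given the beta-lactam antibiotic amoxicillin at 15 mg/kg body weight daily, from the week before expected farrowing until farrowing. Different piglets were sampled at each age, 4 amoxicillin piglets every time and, in the control arm, 6 on day 1, 6 on day 7, 3 at weaning, 5 on the fourth day after weaning (4 d postweaning) and 3 at 4 wk postweaning. Per the methods these last ages were 26, 30 and 54 days. The comparisons ask whether treatment of the sow before birth was accompanied by different receptor transcript levels in the offspring, and how these levels ran over age in either arm.

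Levels are given as log2 of the normalized intensity, so that a difference of 1 is a doubling, and a group value is a mean ± SD. Intensities of different probes cannot be compared with each other, so no receptor is ranked against another. The scanner software marks a spot as well above background when it clearly exceeds its surroundings. A control array had a median of 28182 gene spots so marked (range 15937 to 29827), and an amoxicillin array 21316.5 (range 16150 to 26290). Control arrays filled slides 1 to 3 and amoxicillin arrays slides 4 to 6. An effect of slide therefore cannot be told apart from treatment, and each slide held only neighboring ages. The number of arrays limits the precision of each value. The enterocyte markers (5 of 9 listed had a probe) and the goblet cell markers (2 of 6) were bright in each group, with group means of the lists from 14.6 to 15.76, as in intestinal mucosa. Enterocyte markers spread most in amoxicillin piglets at weaning (15.08 ± 1.2, n = 4), with the lowest array at 13.29. In the other groups their SD was 0.09 to 0.24. In scrapings, fewer cells of a type and less RNA per cell cannot be told apart.

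Over the 43 arrays some receptors were detected on nearly all arrays and others on fewer. Most of the arrays without detection were of the amoxicillin arm. TLR1 and TLR3 were well above background on 43 of 43 arrays, TLR4 on 41 with at least 1 of its probes, and TLR2 on 39. TLR9 was detected on 33 arrays, TLR7 on 32, TLR6 on 29, TLR10 on 25 and TLR8 on 22. The arms differed most in TLR6 to TLR10, of which TLR6, TLR7 and TLR9 were detected on nearly all control arrays. TLR6, which pairs with TLR2, was detected on 22 of 23 control and 7 of 20 amoxicillin arrays. For TLR7, a receptor for single-stranded RNA, the numbers were 22 and 10, for TLR8, which also binds single-stranded RNA, 15 and 7, for TLR9, the receptor for unmethylated DNA, 21 and 12, and for TLR10 18 and 7. At day 7, where amoxicillin arrays had a median of 24228.5 gene spots well above background, the 9 receptors were detected in 91.7% of their 36 receptor-by-array combinations, against 94.4% of 54 in control piglets. At 4 wk postweaning, with 17214 gene spots on amoxicillin and 28240 on control arrays (medians), the shares were 47.2% of 36 and 74.1% of 27. The part of the overall signal of an array in these detection counts was not tested.

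**Figure D1:**
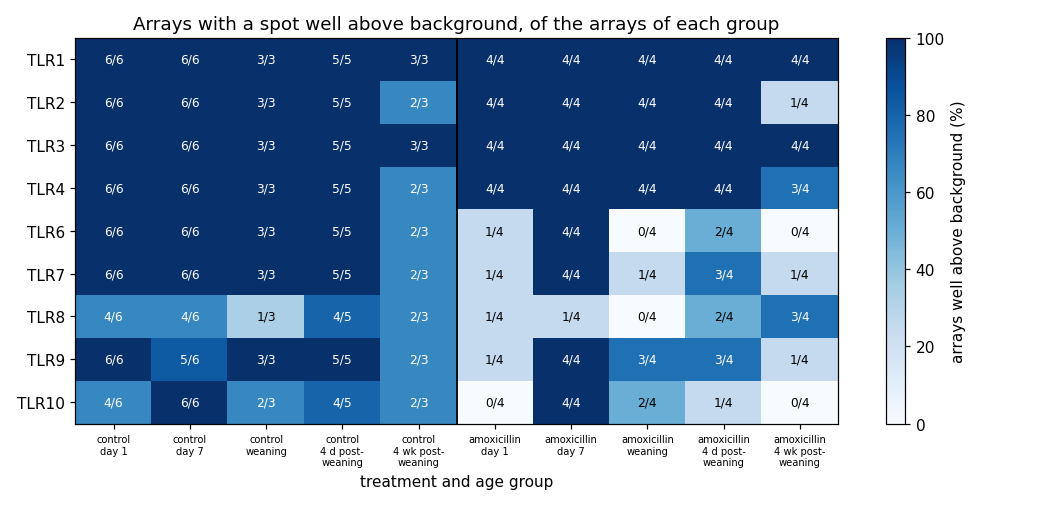
Number of arrays on which each receptor (rows) was well above background, out of the arrays of each treatment and age group (columns), with the percentage as shade. TLR1 and TLR3 were detected on all arrays, while TLR6, TLR7, TLR8, TLR9 and TLR10 were detected on fewer amoxicillin than control arrays.

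A transcript was tested when it exceeded 7.68, a limit set from the dark-corner spots, on every array of at least 1 of the 10 groups. TLR1 and TLR3 passed in all 10 groups and TLR2 in 4, and the other 6 receptors did not pass, so that 3 of the 9 were among the 12771 transcripts tested. The other 6 were tested in a second fit of all 35884 transcripts without this limit, and their adjusted p is given as that of the unfiltered fit. All adjusted p are from limma with Benjamini-Hochberg adjustment over the transcripts of the fit.

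Of the receptors at the cell surface, TLR1 had a change over age in the amoxicillin arm. In amoxicillin piglets it read 8.95, 9.33, 9.91 and 9.21 at day 1 and 9.34, 9.63, 9.67 and 10.45 at day 7. It read 11.15, 11.78, 10.26 and 10.39 at weaning. The 4 d postweaning arrays read 10.45, 10.12, 10.61 and 9.08, and those of 4 wk postweaning 8.94, 9.36, 9.41 and 9.54. All 4 weaning arrays lay above all day 1 and all 4 wk postweaning arrays, groups that did not overlap for 3.72% of all transcripts tested, and the weaning and day 7 arrays overlapped through 1 day 7 piglet. The change over age was called in the amoxicillin arm (F 5.85, adjusted p 0.00414), where 47% of all transcripts tested were called. The rise from day 7 to weaning was 1.12 (SE 0.379, adjusted p 0.0487), a step at which 11.3% of all transcripts were called, and it lost its call in 27 of 43 fits that each left out 1 array. The next differences, -0.83 to 4 d postweaning and -0.75 to 4 wk postweaning, had adjusted p of 0.186 each. The order of the amoxicillin means was weaning, 4 d postweaning, day 7, day 1 and 4 wk postweaning. No neighbors in this order differed beyond the threshold, where day 7 against 4 d postweaning was not tested.

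In control piglets TLR1 was level, with group means from 9.35 ± 0.28 (n = 3) to 9.77 ± 0.52 (n = 5), and no change over age was called (adjusted p 0.882, with 30.5% of all transcripts called). At weaning the 3 control arrays read 10.79, 9.19 and 8.42 against 10.26 to 11.78 in the 4 amoxicillin arrays, so the groups overlapped through control piglet 7. The difference was 1.43 (SE 0.41, 95% interval 0.60 to 2.26, adjusted p 0.0242). It passed the adjusted p but not the fold limit of 1.5 used for treatment, and it passed with a limit of 1, as did 6.85% of all transcripts. Without control piglet 7 it was 2.09 (adjusted p 0.00207), and without control piglet 25 it was 0.91 (adjusted p 0.271). With slide as a random block it was 1.26 (adjusted p 0.182), with the piglet number as a replicate block 1.11 (adjusted p 0.11), and with the scanner's processed signal 1.26 (adjusted p 0.0721). With the arrays of weaning fitted alone the adjusted p was 0.441. At the other 4 ages TLR1 differed by -0.12 to 0.29 between arms.

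Slide moved with the TLR1 course. The 8 amoxicillin arrays on slide 5 read 10.12 to 11.78, among them the day 7 piglet at 10.45, whereas the other 3 day 7 arrays, on slide 4, read 9.34 to 9.67. The 4 d postweaning piglet at 9.08 was the one on slide 6, where the 4 arrays of 4 wk postweaning read 8.94 to 9.54. Within slide 5 weaning exceeded the 1 day 7 array by 0.44. With slide as a fixed block the course in the amoxicillin arm was not called (F 0.607, adjusted p 0.805), under which 10.2% of all transcripts were called.

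B-cell markers also moved with TLR1, which B cells are known to make. The markers used were MS4A1 and CD79A, detected on 23 and 29 arrays. Their mean level ran from 4.91 to 7.65 at day 1 and 5.54 to 6.22 at day 7 in control piglets, and from 5.08 to 7.50 and 5.39 to 7.53 in amoxicillin piglets. At weaning it was 13.43, 6.84 and 7.29 in control piglets 7, 24 and 25, and 7.54, 13.76, 9.79 and 8.75 in amoxicillin piglets 7, 8, 25 and 29. It ran from 6.76 to 9.33 at 4 d and 6.43 to 8.18 at 4 wk postweaning in control piglets, and from 6.06 to 9.80 and 6.70 to 7.70 in amoxicillin piglets. Control piglet 13 of 4 wk postweaning, with 1 of the markers outlier-flagged, enters with the other. Control piglet 7 and amoxicillin piglet 8, with the bright B-cell markers, also had the highest TLR1 of their weaning groups. Over the 43 arrays, which share slides and ages, the correlation of TLR1 with this mean was 0.645 (Spearman 0.415), given as a description. The part of B cells in the TLR1 level was not tested.

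**Figure D2:**
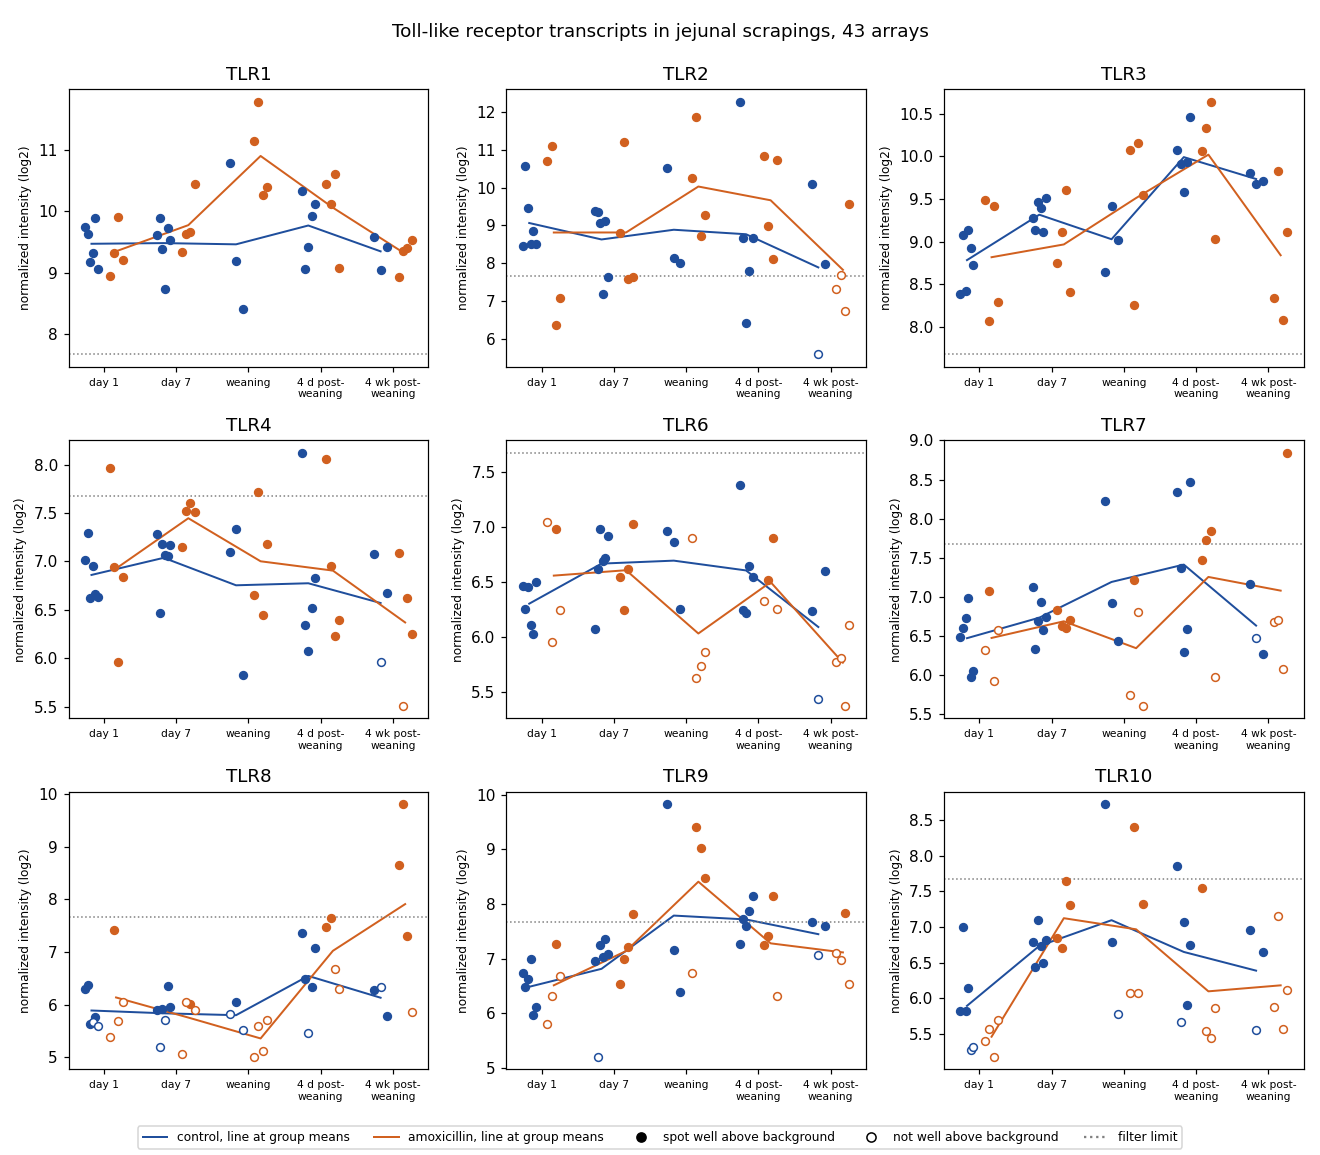
Normalized log2 intensity of the 9 receptors (1 panel each, with its own vertical axis) by age, 1 point per array, control in blue and amoxicillin in orange, with lines through the group means. Filled points were well above background, and the dotted line is the filter limit of 7.68. TLR1 of amoxicillin piglets peaked at a mean of 10.9 at weaning, and TLR8 reached 7.91 at 4 wk postweaning.

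TLR2, the shared partner of TLR1 and TLR6, varied more among piglets of a group than between groups. In control piglets its group means lay between 7.89 ± 2.26 (n = 3) at 4 wk postweaning and 9.07 ± 0.84 (n = 6) at day 1, and in amoxicillin piglets between 7.83 ± 1.22 and 10.03 ± 1.38 (n = 4 each) at 4 wk postweaning and weaning. Its lowest and highest arrays, 5.59 and 12.27, were both control arrays. The highest belonged to piglet 10 at 4 d postweaning, where the other 4 control arrays read 6.42 to 8.68. The lowest was piglet 34 at 4 wk postweaning, the array with 15937 gene spots well above background. No change over age was called in control (adjusted p 0.905) or amoxicillin piglets (adjusted p 0.361). The treatment differences lay between -0.25 and 1.14, with SE from 0.97 to 1.15, so that a log2 difference of 1.5 at any age lay within the 95% interval.

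TLR4, with 4 probes, gave no single course. Its probes correlated with each other by -0.12 to 0.69 over the 43 arrays, and they were detected on 39, 19, 22 and 35 arrays. The averaged level lay between group means of 6.57 and 7.04 in control and between 6.37 and 7.45 in amoxicillin piglets. At day 7, the age of the highest mean in both arms, control arrays read 6.47 at the lowest, 7.12 at the median and 7.28 at the highest, and amoxicillin arrays 7.15, 7.52, 7.60 and 7.51. The groups overlapped, and the difference was 0.41 (95% interval -0.36 to 1.18).

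TLR6 was well above background on 7 of 20 amoxicillin arrays, among them all 4 at day 7. The means at day 7 were 6.61 in amoxicillin and 6.67 in control piglets. At day 1 they were 6.56, with 1 of 4 arrays well above background, and 6.31, with 6 of 6. Detection thus did not follow the TLR6 level between arms. At weaning control arrays read 6.97, 6.87 and 6.26, all well above background, and amoxicillin arrays 6.90, 5.63, 5.74 and 5.87, none of them well above background. The fit without the limit gave a difference of -0.66 (95% interval -1.31 to -0.02, SE 0.32). This difference was not called, and it was 0.09 when the normexp signals were scaled by the 75th percentile of each array and not by quantiles, so its direction depends on the scaling. From day 1 to 4 wk postweaning TLR6 of amoxicillin piglets fell by 0.79 (SE 0.296, adjusted p 0.0434 in the unfiltered fit, with 26.4% of all transcripts called). Of these arrays 1 of the 4 at day 1 and none at 4 wk postweaning was well above background. Scaled by the 75th percentile this was -0.34 (adjusted p 0.407), and with an offset of 50 it was -0.48 (adjusted p 0.0515). It also lost its call without piglet 2 or 18 of day 1 or piglet 37, 38 or 39 of 4 wk postweaning (adjusted p 0.065 to 0.146), with slide as a random block (0.102) or a fixed block (0.464), with array weights (0.225) and with the replicate block (0.502).

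TLR10 was not well above background on any of the 4 amoxicillin arrays at day 1, which read 5.40, 5.57, 5.18 and 5.69. At day 7 all 4 were, at 6.84, 6.71, 7.64 and 7.30, and the ages did not overlap, as for 4.28% of all transcripts. On the quantile-normalized values the day 7 mean was at least 3.09-fold that of day 1. This bound allows for the dim spots only, not for the spread between piglets or for other settings. The difference of 1.66 (SE 0.528, 1.02 to 2.75 under other settings) had an adjusted p of 0.116 in the unfiltered fit. Within slide 4, which held the 4 day 1 and 3 of the day 7 arrays, it was 1.60. In control piglets the means were 5.89 ± 0.64 and 6.73 ± 0.24 (n = 6 each), with 4 and 6 arrays well above background.

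Of the receptors in endosomes, TLR3, which binds double-stranded RNA, had a change over age in both arms. Control arrays lay between 8.39 and 9.14 at day 1 (median 8.83) and between 9.11 and 9.51 at day 7 (median 9.33). They read 8.64, 9.42 and 9.02 at weaning. The 4 d postweaning arrays were higher, at 10.08, 9.91, 9.58, 9.93 and 10.46, and those of 4 wk postweaning read 9.81, 9.68 and 9.71. All 8 postweaning arrays lay above all 15 earlier arrays, and such groups did not overlap for 1.99% of all transcripts tested. The change over age in control piglets was called (F 4.28, adjusted p 0.0243). No single step was called in limma, at steps where 1.43, 0.125, 2.53 and 0% of all transcripts were called. The difference from weaning to 4 d postweaning, 0.96 (SE 0.385, unadjusted p 0.0167, adjusted p 0.153), was the one with an unadjusted p under 0.05. From day 1 to 4 wk postweaning the difference was 0.95 (adjusted p 0.0557).

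In amoxicillin piglets TLR3 spread more. It read 9.49, 8.07, 9.42 and 8.29 at day 1, 8.75, 9.11, 9.60 and 8.41 at day 7, and 10.07, 8.26, 10.16 and 9.55 at weaning. The 4 d postweaning arrays read 10.06, 10.33, 10.64 and 9.03, those of 4 wk postweaning 8.34, 9.83, 8.08 and 9.11. All ages overlapped with the next. The change over age was called (F 3.93, adjusted p 0.0241), as was the fall after 4 d postweaning (-1.18, SE 0.373, adjusted p 0.0327), a step with 12.7% of all transcripts called. The fall lost its call without piglet 10, 32 or 33 of 4 d postweaning or piglet 37 or 39 of 4 wk postweaning (adjusted p 0.0668 to 0.141). The order of the means was 4 d postweaning, weaning, day 7, 4 wk postweaning and day 1, and in control piglets 4 d postweaning, 4 wk postweaning, day 7, weaning and day 1. No neighbors in either order that were tested differed beyond the threshold.

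The call for TLR3 rested on 1 of its 2 probes, which correlated by 0.785. Tested on its own, the first was called in control (adjusted p 0.00782) and amoxicillin piglets (adjusted p 0.00076), and the second in neither (adjusted p 0.124 and 0.272). Slide also moved with it. The amoxicillin array of 4 d postweaning at 9.03 was on slide 6 with those of 4 wk postweaning, and within that slide the step was -0.19. Within slide 2 the 1 control array of 4 d postweaning exceeded the 3 of weaning by 1.05, and within slide 5 the step was 0.83. With slide as a fixed block neither course was called (adjusted p 0.842 in control piglets, with 0.465% of all transcripts called, and 0.128 in amoxicillin piglets), nor was any step.

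Between arms TLR3 differed most at 4 wk postweaning, where its mean was lower in amoxicillin piglets (-0.90, SE 0.402, 95% interval -1.71 to -0.08). The 3 control arrays, 9.68 to 9.81, lay within the range of the amoxicillin arrays, and the adjusted p was 0.231.

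TLR8 had a change over age in amoxicillin piglets. It read 5.01, 5.60, 5.12 and 5.70 at weaning, with no array well above background. The 4 d postweaning arrays read 7.48, 7.64, 6.67 and 6.30, and those of 4 wk postweaning 8.66, 9.81, 7.30 and 5.87. All 4 arrays of 4 d postweaning lay above all 4 of weaning, as these ages did not overlap for 4.24% of all transcripts, while those of 4 wk postweaning ran from near background to the highest of the 43 TLR8 values. The change over age was called in the unfiltered fit (F 8.68, adjusted p 0.000665, with 34.8% of all transcripts called). From weaning to 4 d postweaning the step was 1.67 (SE 0.494, 1.01 to 2.33 under other settings), with an adjusted p of 0.0736. Only 2 of the 4 later arrays were well above background, so no lower bound on the fold is given. From day 1, where arrays read 5.38, 7.41, 5.69 and 6.06, to 4 wk postweaning the rise was 1.77 (adjusted p 0.00708, with 26.4% of all transcripts called). Without piglet 38 it was 1.14 (adjusted p 0.0689). The rise also lost its call with slide as a fixed block (adjusted p 0.284), array weights (0.067) and the replicate block (0.25), and kept it with slide as a random block (0.0268). The day 1 arrays all lay on slide 4 and those of 4 wk postweaning on slide 6.

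In control piglets TLR8 means stayed between 5.80 ± 0.28 (n = 3) at weaning and 6.55 ± 0.73 (n = 5) at 4 d postweaning, and no change over age was called (unadjusted p 0.444, with 13.7% of all transcripts called in the unfiltered fit). At 4 wk postweaning the 3 control arrays read 6.28, 6.33 and 5.79. The amoxicillin arrays exceeded them in 3 of 4 piglets, and the difference was 1.78 (SE 0.534, 95% interval 0.70 to 2.86, adjusted p 0.0405 in the unfiltered fit, in which 3.62% of all transcripts were called past 1.5). The call was lost without control piglet 13, 34 or 37 or amoxicillin piglet 37 or 38 (adjusted p 0.0757 to 0.191, the difference being 1.14 without amoxicillin piglet 38). With slide as a random block the adjusted p was 0.145, and with the arrays of that age fitted alone it was 0.422.

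The step of TLR8 from weaning to 4 d postweaning was present within a slide. Within slide 5 the 3 arrays of 4 d postweaning exceeded the 4 of weaning by 1.91, and with slide as a fixed block this step was called (adjusted p 0.0486, with 2.38% of all transcripts called). In the same fit the whole course had an adjusted p of 0.0615. Macrophage markers ran alongside. Of 8 listed 3 had a probe, CD163, AIF1 and MRC1, all detected on 43 arrays, and their mean level ran from 9.25 to 9.64 at weaning and from 9.92 to 11.59 at 4 d postweaning in amoxicillin piglets, and from 8.90 to 9.82 and from 9.59 to 11.25 in control piglets. At 4 wk postweaning it was 10.15, 9.64, 10.51 and 9.91 in amoxicillin piglets 37, 38, 39 and 40. The piglet with the highest TLR8, 38, had the lowest marker mean of its group. Over the 43 arrays the correlation of TLR8 with this mean was 0.513 (Spearman 0.696), given as a description. The part of macrophages in the TLR8 level was not tested.

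**Figure D3:**
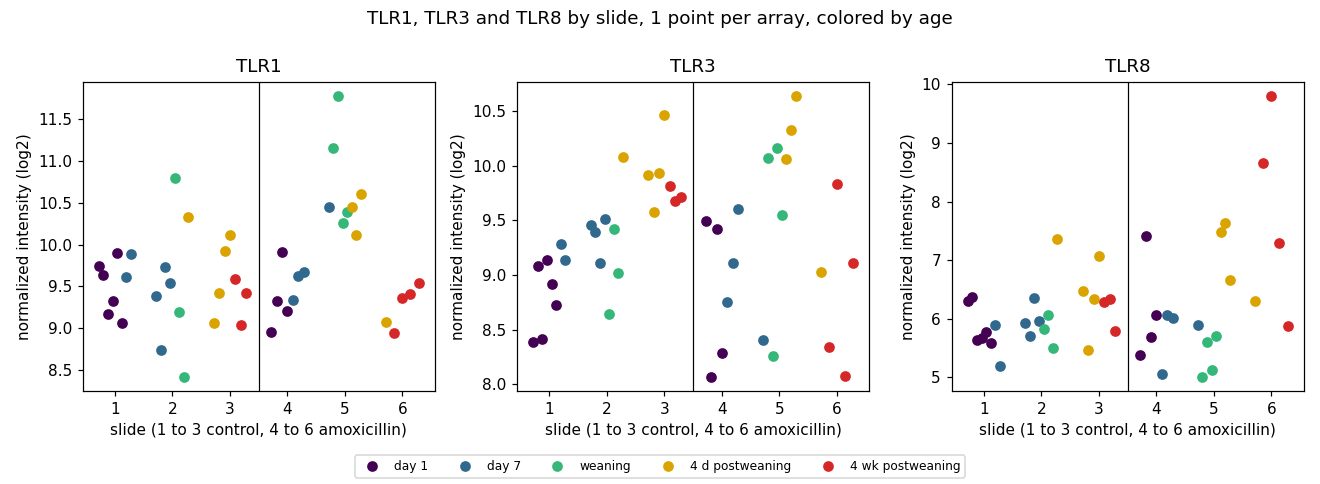
Normalized log2 intensity of TLR1, TLR3 and TLR8 by slide, 1 point per array, colored by age. Slides 1 to 3 held control and 4 to 6 amoxicillin arrays. For TLR1 the 8 arrays of slide 5 lay at 10.12 to 11.78 whatever their age, while TLR8 differed by 1.91 between weaning and 4 d postweaning within that slide.

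TLR7, the neighbor of TLR8, was highest on average at 4 d postweaning in both arms, at 7.41 ± 0.99 (n = 5) in control and 7.26 ± 0.86 (n = 4) in amoxicillin piglets, and no change over age was called. Its treatment differences lay between -0.85 at weaning and 0.45 at 4 wk postweaning, both with intervals that held 0.

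TLR9 was highest on average at weaning in both arms. Control arrays of weaning read 9.83, 7.15 and 6.38, and amoxicillin arrays 6.74, 9.41, 9.02 and 8.47. The control mean rested on piglet 7, since the other 2 arrays lay below the means of 4 d (7.72) and 4 wk postweaning (7.45), and without it the step of TLR9 from day 7 to weaning was -0.04 in place of 0.98. At day 1 control arrays had a median of 6.55 and amoxicillin arrays read 5.80, 6.31, 7.26 and 6.68. The course had an unadjusted p of 0.0355 in control and 0.0175 in amoxicillin piglets and an adjusted p of 0.157 and 0.0503 in the unfiltered fit, so neither was called. The arrays with bright B-cell markers again lay highest in TLR9 (9.83 and 9.41) and in TLR10 (8.72 and 8.40) of their weaning groups. The correlation with the B-cell marker mean over 43 arrays was 0.781 for TLR9 (Spearman 0.651) and 0.614 for TLR10 (Spearman 0.401), given as a description. TLR9 also ran with CCR7, the 1 listed dendritic cell marker with a probe, at 0.697 (Spearman 0.713). A single gene cannot tell dendritic cells from other cells. The part of any cell type in these levels was not tested.

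At the 5 ages none of the 3 receptors tested was called between arms under the adjusted p and the fold limit of 1.5, at ages where 0.211, 0, 3.41, 1.54 and 2.13% of all transcripts were called from day 1 to 4 wk postweaning. At an unadjusted p under 0.05 limma gave TLR1 at weaning and TLR3 at 4 wk postweaning. Of the 45 differences of 9 receptors at 5 ages, 23 were higher and 22 lower in amoxicillin piglets, 3 were beyond 1, and the arms overlapped in each, where 5.78, 3.36, 12.7, 4.08 and 13.8% of the tested transcripts had arms that did not overlap. At day 1 and day 7 all 18 differences lay between -0.43 and 0.41. A difference of the treatment contrast between ages was called for none of the 3, with adjusted p of 0.291 for TLR1, 0.952 for TLR2 and 0.484 for TLR3, none with an unadjusted p under 0.05, against 6.18% of all transcripts. TLR8 had an unadjusted p of 0.0511 in this test.

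**Figure D4:**
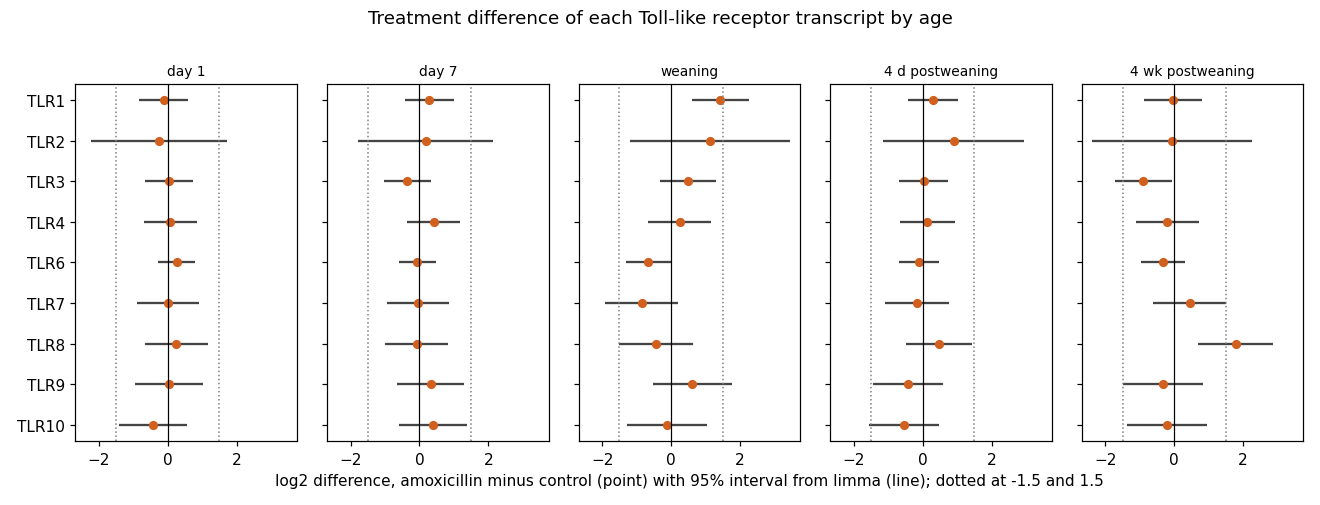
Log2 difference between amoxicillin and control piglets (point, amoxicillin minus control) with its 95% interval from limma (line) for the 9 receptors at the 5 ages. Dotted lines mark -1.5 and 1.5. The intervals of TLR1 at weaning (0.60 to 2.26) and TLR8 at 4 wk postweaning (0.70 to 2.86) lay above 0, and those of TLR6 at weaning (-1.31 to -0.02) and TLR3 at 4 wk postweaning (-1.71 to -0.08) below 0.

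Transcripts whose level ran most like a receptor's were taken from 1887 tested transcripts with a symbol, by Pearson's correlation over the 43 arrays, as a description. For TLR1 these were RCSD1 (0.779), SUMO2 (0.748) and CD1.1 (0.725), for TLR2 KIF2A (0.722), NFKB1 (0.688) and ACTR3 (0.65), and for TLR3 IFIH1 (0.752), which encodes the cytosolic sensor of double-stranded RNA MDA5, and KLF3 (0.707). Among the receptors that did not pass the limit, TLR9 ran most like LY86 (0.803), CD79A (0.759) and GP91-PHOX (0.741). CD79A is also one of the B-cell markers used above. TLR7 ran most like AIF1 (0.678), MMP12 (0.629) and BST2 (0.596). The highest correlations of the rest were with HIF1A for TLR4 (0.753), ZRANB2 for TLR6 (0.717), HSPB1 for TLR8 (0.586) and MGP for TLR10 (0.727). Between receptors the correlations ran from -0.25 for TLR6 with TLR8 to 0.58 for TLR1 with TLR9.

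Signals of these receptors pass through adaptors, kinases and ubiquitin ligases to the NF-kB and IRF transcription factors, which switch on cytokines and chemokines. Of 60 listed genes of this pathway 35 had a probe and 28 were tested. The change over age was called for 5 of the 28 in control and for 16 of the 28 in amoxicillin piglets, beside the 30.5 and 47% of all transcripts given above. These shares also stand beside each count over age of the lists below. A difference of the treatment contrast between ages was called for 0 of the 28, against 6.18% of all transcripts. The counts per arm therefore do not show that the courses differed between arms.

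Among products, 2 of 5 were called in control and 4 of 5 in amoxicillin piglets. CCL5, a T-cell attracting chemokine, had means of 9.76, 12.54, 13.13, 14.00 and 14.88 from day 1 to 4 wk postweaning in control piglets and 9.75, 12.28, 13.53, 13.89 and 15.10 in amoxicillin piglets (adjusted p 2.54e-12 and 1.41e-11). CXCL10, an interferon-induced chemokine, had its highest mean at 4 d postweaning in both arms, at 14.14 and 15.12 (adjusted p 0.00169 and 0.000346), the age at which the TLR3 means were also highest.

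Among transcription factors, 1 of 5 was called in control and 3 of 5 in amoxicillin piglets. IRF7, which acts downstream of TLR7 and TLR9, had its highest mean at 4 d postweaning in control piglets (14.73, adjusted p 0.00271) and at 4 wk postweaning in amoxicillin piglets (15.23, adjusted p 1.22e-05). NFKB1, a subunit of NF-kB, had a mean of 10.58 at weaning in amoxicillin and 9.46 in control piglets, a difference of 1.13 (SE 0.334, adjusted p 0.0304). It was the one of the 28 with an adjusted p under 0.05 between arms at that age, as it was for 7.95% of all transcripts, and it lay below the fold limit.

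Both inhibitors tested were called over age in amoxicillin and neither in control piglets. NFKBIA, which holds NF-kB in the cytoplasm, had its highest mean at weaning in both arms. It was 14.49 in amoxicillin (adjusted p 0.00167) and 14.13 in control piglets. Of 8 kinases and ligases 0 and 4 were called. MAP3K7, the kinase TAK1, was lower in amoxicillin piglets at 4 wk postweaning, with means of 8.36 and 9.74 (-1.38, SE 0.361, adjusted p 0.021), the one of the 28 with an adjusted p under 0.05 at that age, beside 4.11% of all transcripts. Of 6 co-receptors and chaperones 1 and 3 were called, among them CD36, a co-receptor of TLR2, in both arms (adjusted p 0.0181 and 0.00216). Of 2 adaptors TICAM2, the adaptor of TLR4 also called TRAM, was called in control piglets (adjusted p 0.0248).

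Of 14 other pattern recognition receptors 8 had a probe and 3 were tested. Over age 2 of the 3 were called in control and 3 in amoxicillin piglets, beside 30.5 and 47% of all transcripts. IFIH1 was called over age in both arms (adjusted p 0.00164 and 0.0493) and had its highest mean at 4 d postweaning, at 11.41 in control and 11.15 in amoxicillin piglets. PGLYRP2, which cleaves peptidoglycan, was called in both arms (adjusted p 4.74e-05 and 0.0231). TMEM173, which encodes the DNA-signaling adaptor STING, was called in amoxicillin piglets (adjusted p 4.94e-06). At 4 wk postweaning its mean was 9.21 in amoxicillin and 7.80 in control piglets, a difference of 1.41 (SE 0.357, adjusted p 0.0178), below the fold limit of 1.5. At that age 4.11% of all transcripts had an adjusted p under 0.05. The treatment contrast of TMEM173 differed between ages (adjusted p 0.0232), as did that of 6.18% of all transcripts.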

How the data were processed

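The authors labelled total RNA with cyanine 3, hybridized it to 8-pack Agilent arrays and extracted the scans with Feature Extraction 10.7.3.1. They deposited linear intensity values of each spot per array, not scaled between arrays, and a table of normalized log2 values (the submitters' notes name R 3.0.2 and limma). The genome build is not given in the sources used here. From the median intensity minus its local background, normexp with an offset of 1 and quantile normalization were done in R 4.3.3 with limma 3.58.1, which gave the authors' log2 table within 5e-09. Outlier-flagged spots were removed (none belonged to a receptor), and probes of a transcript were averaged. Gene symbols came from a RefSeq table of Sscrofa11.1.

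Dark-corner spots numbered 35 per array. The highest without a flag, 6.98, times 1.1 gave the limit of 7.68. The methods do not state its scale or arrays. All 43 arrays entered 1 limma fit of 10 groups. Treatment calls required an adjusted p under 0.05 and a log2 difference beyond 1.5, and age calls (moderated F-test per arm, and steps between ages) an adjusted p under 0.05. Intervals are 95% intervals from the same fit. A bound ("at least") sets the brighter mean against the lowest signal well above background on each array, or the dim spot's own signal where higher. It is given where all arrays of the brighter group were well above background. The fit was tested on simulated data.

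Per the methods 1 piglet per sow was taken at an age. Control day 1 arrays include piglets labelled 19 and 19B, and the labels do not tell how these are related. The labels do not tell which piglets of different ages share a sow, so p-values measure the spread between these piglets. All receptors with a probe are named. Of each gene list, those called are counted and the ones with the lowest adjusted p are named. The receptors and lists were chosen with earlier results of these data known. Tried in place of these settings were flagged spots kept, an offset of 50, arrays shifted to a common 75th percentile (of the processed or the normexp signal), testing without a limit or with one on spots well above background, the authors' table, each probe on its own, slide as a random or fixed block, array weights, the piglet number as a block, each age alone, other fold limits and leaving out each array. Added after seeing the data was the removal of the 2 amoxicillin arrays that lie on another slide than the rest of their group. Some transcripts are not reported here and were left out of list means. Listed blood markers had no probe. Markers of neutrophils (3 with a probe, none tested), dendritic cells, T cells, smooth muscle and pancreatic acinar cells were also listed. Their means correlated with the receptors by -0.40 to 0.70 over the 43 arrays. Enterocyte marker means did so by -0.53 (TLR2) to 0.42 (TLR3), and by -0.43 for TLR1 (Spearman -0.08).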

Additional observations from a re-analysis of the deposited data

Results flagged for a closer look

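Of 72 receptor and group combinations of 4 to 6 arrays, 3 held 1 array far from the others, and about 1 in 20 would by chance. At day 7, control piglet 19 read 5.20 in TLR9, where the other 5 arrays read 6.96 to 7.35. The same array read 6.47 in TLR4, where the others lay between 7.06 and 7.28. Amoxicillin piglet 4 at day 7 read 5.06 in TLR8, with the other 3 arrays between 5.90 and 6.06, and 1 of the 4 was well above background.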

How the results depend on the processing

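The fit tested 3 receptors, so the counts are small, and each gives the number of receptors called (for steps, of receptor and step combinations). Of the changes over age, 1 was called in control and 2 in amoxicillin piglets, and 0 in either with slide as a random block, with slide as a fixed block, and with the piglet number as a replicate block. With the filter on spots well above background, which left 8 receptors, 5 were called in amoxicillin piglets. The share of all transcripts called under this filter was not counted, so the 5 cannot be read as a result about the receptors. In the other fits the share was 47% with the limit from dark-corner spots and 34.8% without a limit. Steps in amoxicillin piglets numbered 2, against 1 with the scanner's processed signal (shifted to 1 common 75th percentile), without a limit, with the limit on spots well above background and with array weights, and 0 with the normexp signal shifted likewise, with slide as a random or fixed block and with the replicate block. Steps in control piglets numbered 0, and 2 with array weights. Between arms 0 were called at each age, but 1 at weaning with a log2 limit of 1 or no limit (TLR1), and 1 at 4 wk postweaning without a filter (TLR8). Leaving out each array in turn gave 1 to 2 courses in amoxicillin and 0 to 1 in control piglets, 0 to 3 steps in amoxicillin and 0 in control piglets, 0 to 1 receptors between arms at weaning and 0 at the other ages, and 0 to 1 for the difference of the treatment contrast between ages. The TLR3 course was lost in amoxicillin piglets without piglet 10, 32 or 33 of 4 d postweaning (adjusted p 0.0521, 0.0755 and 0.0979) and in control piglets without piglet 16 or 18 of day 1 or piglet 32 of 4 d postweaning (0.0528, 0.0524 and 0.0675). The TLR1 course in amoxicillin piglets kept an adjusted p of 0.00098 to 0.0283, whichever array was left out. The rise of TLR1 from day 7 to weaning lost its call in 27 of 43 such fits, and with the replicate block it reversed, to -0.16 (adjusted p 0.974). Same-numbered piglets of both arms deviated from their group means with correlations of -0.27 to 0.44. The labels do not tell whether a shared piglet number links animals. Without the 2 amoxicillin arrays on another slide than their group the steps numbered 3 and the other counts did not move. The cause of these differences was not tested. Signal over background limits TLR6, TLR7, TLR8, TLR9 and TLR10, whose levels in amoxicillin piglets often were not well above background.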
